A study of Solanum lycopersicum with 10 samples.

Results

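Tomato has a family of 7 named ethylene receptor genes, and all 7 were taken from the gene tables by their identifiers, among 35288 genes listed. They are ETR1 (Solyc12g011330), ETR2 (Solyc07g056580), ETR3 (Solyc09g075440, the gene behind the Never-ripe mutant), ETR4 (Solyc06g053710), ETR5 (Solyc11g006180), ETR6 (Solyc09g089610) and ETR7 (Solyc05g055070). Poly(A) RNA was sequenced from the exocarp and the mesocarp of mature green fruits, the exocarp and the mesocarp of red ripe fruits, and leaves pooled from both stages, with 2 biological replicates per tissue and 10 libraries in all. The stages are called green and red where tissues are listed. The exocarp is the skin of the fruit (cuticle and epidermis) and the mesocarp is the flesh under it. All plants were of the cultivar that the labels spell Alisa Craig, without a transgene or a named treatment. The study was made to search for exocarp promoters, and the receptors are followed here across all 5 tissues to ask how their transcripts are divided between stage, fruit layer and leaf.

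Ethylene is the gaseous hormone that drives ripening of tomato fruit. Its receptors are membrane proteins of the endoplasmic reticulum that hold the response off: without ethylene they keep the kinase CTR1 active, and binding of ethylene turns them off. The receptors are therefore negative regulators, and a higher receptor level is known to lower the sensitivity of a tissue to the hormone. ETR1, ETR2 and ETR3 belong to subfamily I, whose members keep the features of a histidine kinase, and ETR3 lacks the receiver domain that ETR1 and ETR2 carry. ETR4, ETR5, ETR6 and ETR7 belong to subfamily II, whose kinase domains have lost some of those features. In tomato fruit, receptor proteins are also known to be degraded once ethylene is bound, so that transcript and protein levels can part. Only transcripts were measured in these libraries.

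The library totals lay between 30945619 and 45637676 counts, and the 7 receptors had between 35 and 125936 counts each per library, so none was at 0. The summed FPKM (counts scaled to transcript length and library size, as deposited) of 4 of 4 skin genes listed was between 2461 and 3558 in the exocarp libraries and at most 79.8 in the mesocarp libraries. In leaf that sum was between 328 and 340. Of the 4 genes only CD1 had exocarp libraries below mesocarp libraries. It had 0.60 and 0.68 FPKM in red ripe exocarp, against 45.4 and 46.7 in mature green mesocarp and at most 0.0214 in red ripe mesocarp. The summed FPKM of 3 small-subunit genes of Rubisco was at least 17134 in leaf and at most 1045 in fruit. That of 4 ripening genes was at least 20438 in red ripe fruit and at most 194.5 elsewhere, so the marker sums followed the tissue labels. The mature green exocarp replicates lay furthest apart, with 417 of 11630 genes (3.59%) differing at least 2-fold, against at most 0.737% in the other tissues.

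In bulk tissue, fewer cells of a type and less RNA per cell cannot be told apart. Levels of different genes were compared in FPKM, and the same gene was compared between tissues in CPM (counts scaled to a common library size, after TMM scaling). A gene was called when its adjusted p-value in edgeR's quasi-likelihood test, fitted on all 10 libraries and corrected over the 22801 genes tested, was under 0.05. All 7 receptors passed the filter on low counts, and all 7 differed somewhere among the 5 tissues, as did 91.1% of all genes tested. ETR1 had the weakest evidence of the 7 (adjusted p = 0.0182 by edgeR), and it was not called with DESeq2.

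**Figure D1:**
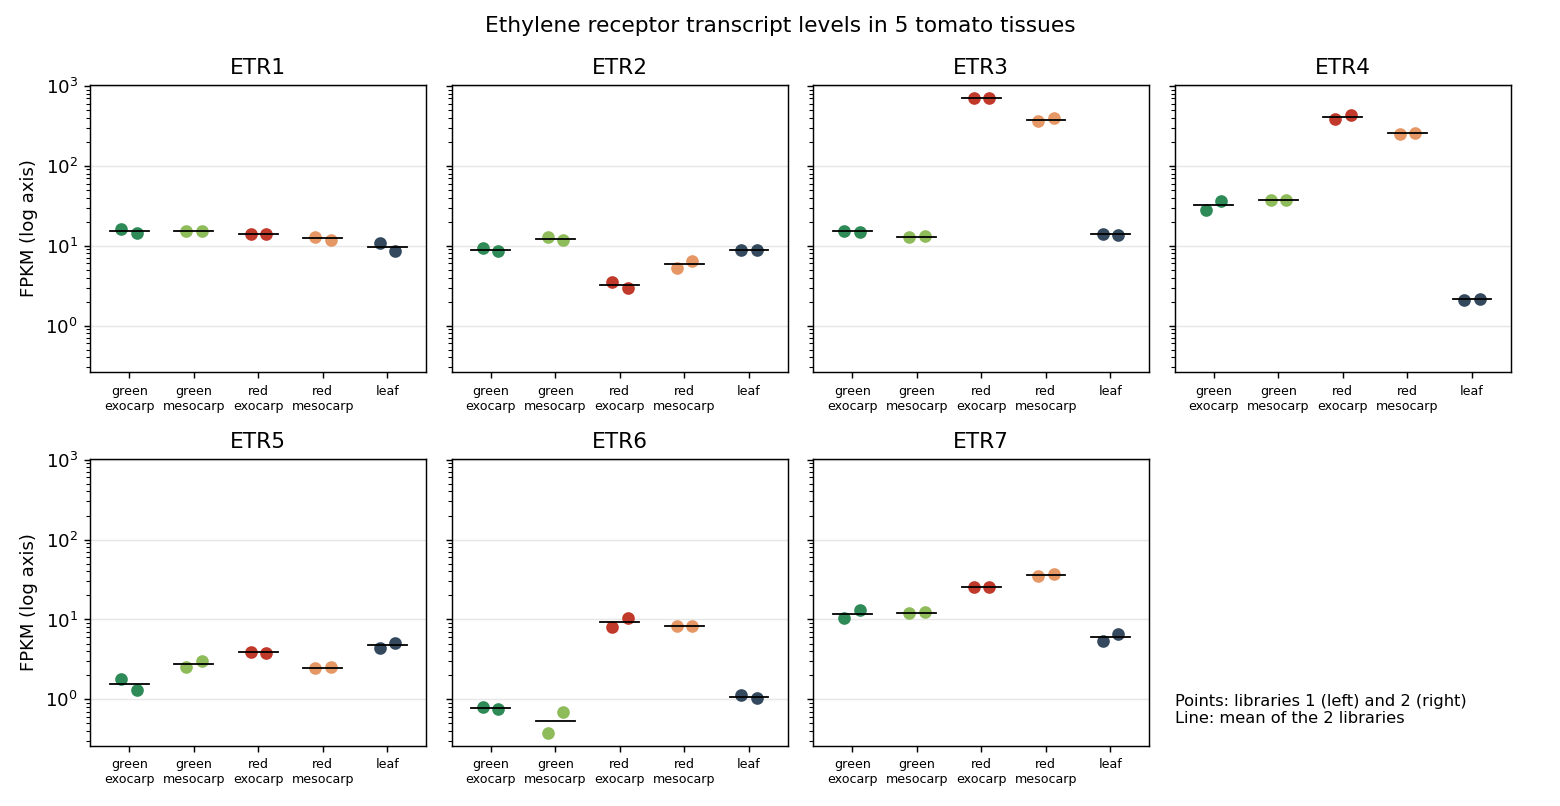
FPKM of each receptor (log axis) in each library, with 1 panel per gene, points for the libraries and a line at the mean of the 2 libraries of a tissue. ETR3 and ETR4 stand at 252 FPKM or more in the 4 red ripe libraries, while ETR1 stays between 8.53 and 16.0 FPKM in all 10.

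Red ripe fruit carried far more ETR3 and ETR4 transcript than mature green fruit in both layers, and also more ETR6 and ETR7. ETR2 was lower in red ripe fruit in both layers. ETR5 was higher in red ripe exocarp and was not called in mesocarp. In exocarp 6 of 7 receptors were called (5 higher and 1 lower), where 61.9% of all genes were called (29.7% higher and 32.2% lower). In mesocarp 5 of 7 were called (4 higher and 1 lower), where 60.1% of all genes were called (28.2% higher and 31.8% lower). The median log2 fold change of the 7 receptors was 1.65 in exocarp and 2.01 in mesocarp, and that of all genes tested was 0 and -0.02.

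ETR3 is the receptor whose dominant mutation, through loss of ethylene binding, leaves fruit unable to ripen. Its level was 61.1 and 61.5 CPM in mature green exocarp and 3551 and 3539 CPM in red ripe exocarp. In mesocarp it was 47.1 and 50.1 CPM at the mature green stage and 1822 and 1943 CPM at the red ripe stage. The stages did not come near each other in either layer. The rise was 57.8-fold in exocarp (log2 fold change 5.85, SE 0.0962, edgeR adjusted p = 8.55e-09) and 38.7-fold in mesocarp (5.28, SE 0.0938, adjusted p = 2.33e-08). The exocarp change was larger in size than 93.4% of the changes of all genes tested, and the mesocarp change was larger than 92.5%.

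ETR4 is a subfamily II receptor, and fruit with reduced ETR4 expression is known to ripen early. It stood at 83.6 and 112 CPM in mature green exocarp and at 1440 and 1650 CPM in red ripe exocarp. The mesocarp held 103 and 105 CPM at the mature green stage, and 944.9 and 961 CPM at the red ripe stage. The libraries of both green layers overlapped, and ETR4 rose 15.8-fold in exocarp (log2 fold change 3.98, SE 0.148, edgeR adjusted p = 1.20e-07) and 9.14-fold in mesocarp (3.19, SE 0.143, adjusted p = 3.74e-07).

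ETR6, another subfamily II receptor whose loss is known to bring early ripening, was the scarcest receptor in green fruit. It had 2.08 and 2.03 CPM in mature green exocarp and 26.1 and 34.4 CPM in red ripe exocarp. Mature green mesocarp had 0.925 and 1.71 CPM, from 35 and 64 counts, and red ripe mesocarp had 27.4 and 26.6 CPM. These rises, 14.7-fold in exocarp (log2 fold change 3.88, SE 0.247, edgeR adjusted p = 2.27e-06) and 20.5-fold in mesocarp (4.36, SE 0.26, adjusted p = 1.93e-06), were of the same order as that of ETR4 although the level reached was far lower. The low mesocarp counts make the mesocarp fold the less certain value: it was between 3.999 and 4.86 on the log2 scale when a library was left out. As log2(FPKM + 1), a scale that understates the change of genes with low values, the rises were 2.51 in exocarp and 2.61 in mesocarp. Mature green mesocarp replicate 2, with the higher ETR6 level of its tissue, also had the higher summed FPKM of the 4 ripening genes (194.5 against 110.8), and the part of this in the ETR6 values was not tested.

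ETR7, also of subfamily II, rose less. In exocarp it went from 28.7 and 37.8 CPM at the mature green stage to 90.9 and 91.8 CPM at the red ripe stage, a 2.75-fold rise (log2 fold change 1.46, SE 0.133, edgeR adjusted p = 2.02e-05). In mesocarp it went from 31.1 and 32.1 CPM to 125 and 130.3 CPM, a 4.04-fold rise (2.01, SE 0.135, adjusted p = 3.66e-06). ETR7 was the only one of the 7 with its highest level in red ripe mesocarp, where both libraries lay above every other library.

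ETR2, a subfamily I receptor with a receiver domain, moved the other way. Its level was 24.9 and 24.3 CPM in mature green exocarp, and 11.9 and 10.2 CPM in red ripe exocarp. In mesocarp it was 32.3 and 29.9 CPM at the mature green stage and 18.2 and 21.5 CPM at the red ripe stage. It fell by 1.15 on the log2 scale in exocarp (SE 0.117, edgeR adjusted p = 3.89e-05) and by 0.65 in mesocarp (SE 0.114, adjusted p = 0.00123). Red ripe exocarp was the tissue with the least ETR2 of all 5.

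ETR5, of subfamily II, changed with stage in the exocarp. It had 5.10 and 3.89 CPM in mature green exocarp and 14.3 and 14.1 CPM in red ripe exocarp, a 3.15-fold rise (log2 fold change 1.65, SE 0.166, edgeR adjusted p = 3.61e-05). The mesocarp values were 6.90 and 8.10 CPM at the mature green stage and 8.85 and 9.14 CPM at the red ripe stage, which did not overlap but differed by 0.26 on the log2 scale with an adjusted p of 0.196 (edgeR). That small mesocarp difference had the opposite sign with total counts or FPKM as the scale, so no direction is given.

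ETR1, a subfamily I receptor with a receiver domain, varied least over the tissues. Exocarp held 41.5 and 38.8 CPM at the green stage and 46.6 and 46.9 CPM at the red stage. Mesocarp held 37.3 and 37.2 CPM at the green stage and 42.4 and 38.4 CPM at the red stage. The stage differences of 0.22 in exocarp and 0.12 in mesocarp on the log2 scale were not called (edgeR adjusted p = 0.133 and 0.41), and their sign turned with total counts or FPKM as the scale. Without leaf replicate 2 the exocarp difference was called (0.23, adjusted p = 0.0448). Scaling by total counts moved the median log2 fold change of all genes by -0.28 in exocarp and -0.39 in mesocarp and left 33.8% and 27.8% of the called genes higher in red ripe fruit, and every one of the 11 receptor changes called with stage kept its direction and its call under it.

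**Figure D2:**
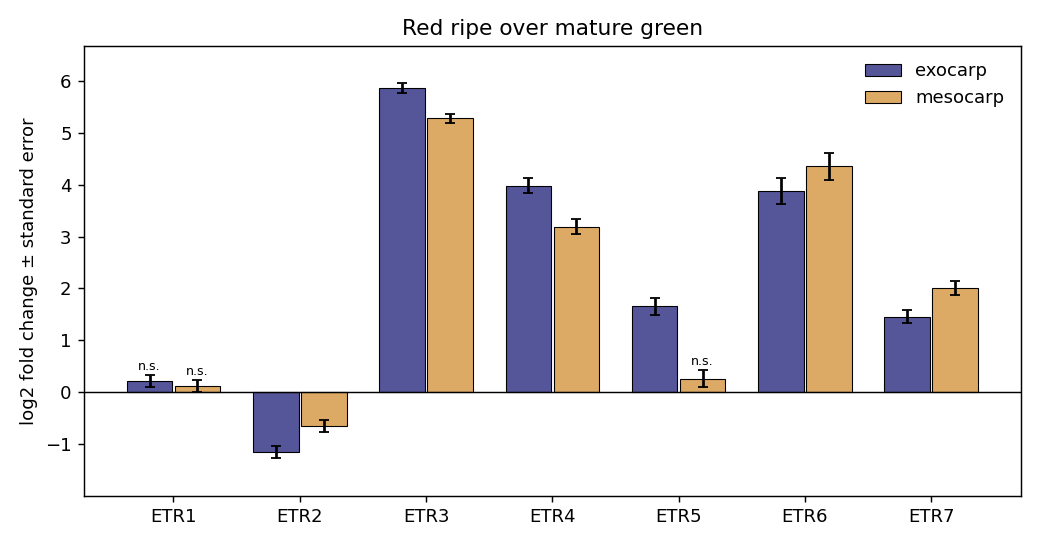
Log2 fold change of each receptor in red ripe over mature green tissue, in exocarp and in mesocarp, with bars for the edgeR estimate, error bars for its standard error and n.s. for an adjusted p of 0.05 or more. ETR3 rises most in both layers (5.85 and 5.28), ETR2 falls in both (-1.15 and -0.65), and ETR1 is not called in either.

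In mature green fruit more ETR3 and less ETR2 and ETR5 was found in exocarp than in mesocarp. In red ripe fruit more ETR3, ETR4 and ETR5 and less ETR2 and ETR7 was found in exocarp. At the mature green stage 3 of 7 receptors were called (1 higher and 2 lower in exocarp), where 36.3% of all genes were called (17.3% higher and 19% lower). At the red ripe stage 5 of 7 were called (3 higher and 2 lower), where 37.4% of all genes were called (18.1% higher and 19.4% lower). The mature green comparison holds the pair of replicates that lay furthest apart.

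In mature green fruit, ETR3 was 1.26-fold higher in exocarp (log2 fold change 0.33, SE 0.0793, edgeR adjusted p = 0.0114). ETR2 was lower in exocarp by a like factor (-0.34, SE 0.113, adjusted p = 0.0468), and ETR5 was 1.67-fold lower (-0.74, SE 0.166, adjusted p = 0.00894). ETR1, ETR4 and ETR7 differed by 0.11, -0.09 and 0.07 on the log2 scale and were not called, and ETR4 and ETR7 overlapped between the layers. ETR6 differed by 0.64 (SE 0.27) and was not called (adjusted p = 0.0995).

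The green calls were easily lost. ETR2 was not called without either exocarp replicate, either mesocarp replicate or either leaf replicate (edgeR adjusted p from 0.0751 to 0.214), ETR3 was not called without mesocarp replicate 1 (adjusted p = 0.0692) and ETR5 was not called without mesocarp replicate 2 (adjusted p = 0.0644). The ETR3 call was also lost with total counts (0.21, adjusted p = 0.0735), and the ETR2 call without the filter on low counts (-0.33, adjusted p = 0.06). ETR4 was called lower in exocarp without exocarp replicate 2 (-0.32, adjusted p = 0.0275), in which it was 1.34-fold higher than in replicate 1, and ETR6 was called higher without mesocarp replicate 2 (1.15, adjusted p = 0.0167).

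In red ripe fruit ETR3 was 1.88-fold higher in exocarp, with 3551 and 3539 CPM against 1822 and 1943 CPM (log2 fold change 0.91, SE 0.0785, edgeR adjusted p = 5.67e-05). ETR4 was 1.62-fold higher (0.70, SE 0.131, adjusted p = 0.00371) and ETR5 was 1.57-fold higher (0.65, SE 0.16, adjusted p = 0.0128). ETR2 was 1.80-fold lower in exocarp (-0.84, SE 0.117, adjusted p = 0.000767) and ETR7 was also lower (-0.48, SE 0.129, adjusted p = 0.0192). ETR1 (0.21, adjusted p = 0.197) and ETR6 (0.16, adjusted p = 0.602) were not called. The ETR1 libraries did not overlap between the layers, and the ETR6 libraries did. ETR7 was not called when any of the 4 red ripe libraries was left out (adjusted p from 0.0687 to 0.0953), and ETR5 was not called without either mesocarp replicate (0.0743 without replicate 1 and 0.0569 without replicate 2).

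**Figure D3:**
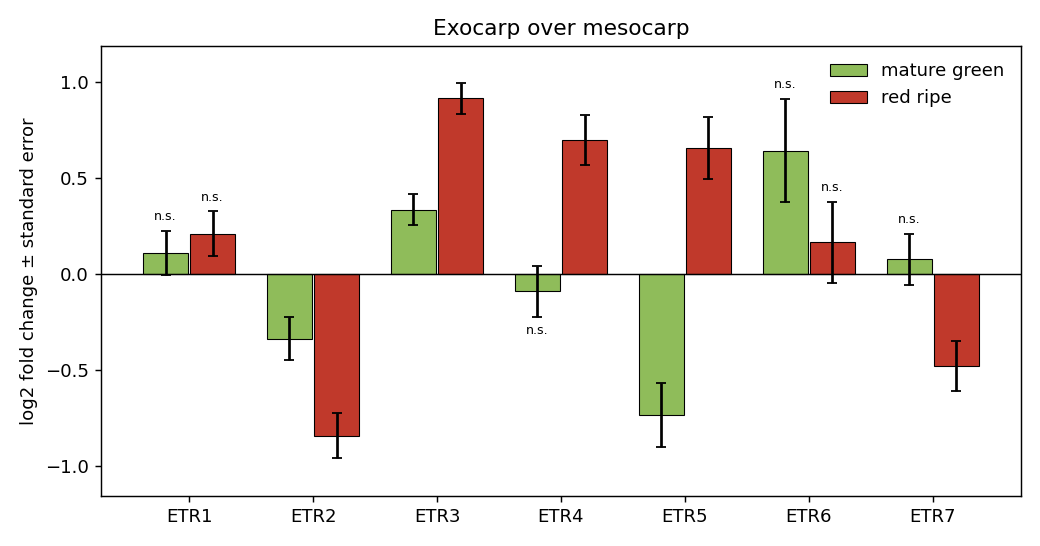
Log2 fold change of each receptor in exocarp over mesocarp, at the mature green and at the red ripe stage, with bars for the edgeR estimate, error bars for its standard error and n.s. for an adjusted p of 0.05 or more. ETR5 is lower in green exocarp (-0.74) and higher in red exocarp (0.65), and ETR3 goes from 0.33 to 0.91.

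Whether ripening changed a receptor more in one layer than in the other was tested as the difference of the 2 changes. The rise was larger in exocarp than in mesocarp for ETR3 by 0.58 on the log2 scale (SE 0.111, edgeR adjusted p = 0.00789), for ETR4 by 0.79 (SE 0.186, adjusted p = 0.0187) and for ETR5 by 1.39 (SE 0.231, adjusted p = 0.00407). These 3 of 7 receptors were called (3 higher), where 21.3% of all genes were called (10.9% higher and 10.5% lower). ETR5 had the widest gap and was the only receptor whose called layer difference changed sign between the stages.

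The other 4 receptors were not called in that test. ETR2 (-0.51, SE 0.162, edgeR adjusted p = 0.0596) and ETR7 (-0.56, SE 0.185, adjusted p = 0.0673) lay close to the threshold, and DESeq2 called both. ETR6 (-0.48, SE 0.342) and ETR1 (0.10, SE 0.164) were further from it. The ETR4 call was lost when any of 5 libraries was left out, namely both red ripe mesocarp libraries, both mature green mesocarp libraries and red ripe exocarp replicate 2 (adjusted p from 0.0558 to 0.0687). ETR2 was called without red ripe mesocarp replicate 1 (adjusted p = 0.0476) or red ripe exocarp replicate 1 (0.0433), and ETR7 without mature green exocarp replicate 1 (0.00284).

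In leaf the family had another profile, with very little ETR4 and the highest ETR5 of any tissue. Leaf ETR4 was 7.93 and 8.08 CPM, below every fruit library. Relative to leaf, ETR4 was 12.2-fold higher in the exocarp and 13.0-fold higher in the mesocarp of green fruit (log2 fold change 3.61 and 3.70). For red fruit these values were 193-fold and 119-fold (7.59 and 6.89, edgeR adjusted p at most 2.22e-07 in all 4 tests). No other receptor was that much higher in green fruit than in leaf.

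ETR3 in leaf was 71.2 and 68.4 CPM, a level like that of green fruit. Red ripe exocarp held 50.8-fold more than leaf and red ripe mesocarp 27.0-fold more (log2 fold change 5.67 and 4.75, edgeR adjusted p = 3.31e-09 and 3.97e-09). Mature green mesocarp held less than leaf by 0.52 on the log2 scale (SE 0.0795, adjusted p = 0.000441), a difference of 0.09 to 0.11 that was not called with total counts or FPKM as the scale. Mature green exocarp differed from leaf by -0.19 (adjusted p = 0.0607) with the opposite sign on those scales, and DESeq2 called it lower (-0.30, adjusted p = 1.50e-05).

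ETR5 was highest in leaf, with 16.0 and 18.3 CPM. It was lower than in leaf in mature green exocarp (-1.93, SE 0.167, edgeR adjusted p = 1.21e-05), in mature green mesocarp (-1.19, SE 0.162, adjusted p = 0.00022) and in red ripe mesocarp (-0.93, SE 0.161, adjusted p = 0.000746). Red ripe exocarp came closest to leaf and was not called (-0.28, adjusted p = 0.142), although DESeq2 called it (-0.43, adjusted p = 0.0401).

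ETR6 had 3.73 and 3.40 CPM in leaf, between green and red fruit. It was 8.48-fold higher in red ripe exocarp and 7.57-fold higher in red ripe mesocarp (edgeR adjusted p = 4.76e-06 and 6.34e-06), and lower in mature green mesocarp by 1.44 on the log2 scale (adjusted p = 0.00137). In mature green exocarp it was 0.80 lower (adjusted p = 0.0195), a call that was lost without either leaf replicate or without mature green exocarp replicate 2 (adjusted p from 0.054 to 0.0895). The call was also lost with total counts (-0.50, adjusted p = 0.102) and by limma on log2(FPKM + 1) (-0.23, adjusted p = 0.202) and log2(FPKM + 0.1) (-0.43, adjusted p = 0.18).

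ETR7 had its lowest level in leaf, 19.2 and 23.1 CPM. It was higher than in leaf in all 4 fruit tissues, by 0.65 and 0.58 on the log2 scale in green exocarp and mesocarp and by 2.11 and 2.59 in red exocarp and mesocarp (edgeR adjusted p at most 0.00491).

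ETR2 stood at 30.0 and 29.9 CPM in leaf, which overlapped with mature green mesocarp in CPM. That difference was 0.05 on the log2 scale and was not called (edgeR adjusted p = 0.691), but with total counts it was called higher in green mesocarp (0.47, adjusted p = 0.00744), and limma on log2(FPKM + 1) called it as well (0.44, adjusted p = 0.00805). It was lower in red ripe exocarp by 1.44 on the log2 scale and in red ripe mesocarp by 0.59 (edgeR adjusted p = 6.79e-06 and 0.00143). Mature green exocarp lay close to the threshold (-0.28, adjusted p = 0.0504), with a sign that turned with total counts or FPKM as the scale. It was called lower with DESeq2 (-0.40, adjusted p = 0.00815), with only the compared tissues fitted (-0.36, adjusted p = 0.0161) and without red ripe mesocarp replicate 1 (-0.28, adjusted p = 0.0447).

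ETR1 had 35.9 and 27.9 CPM in leaf, the widest gap between replicates of any receptor there (1.29-fold). It was higher in red ripe exocarp by 0.55 on the log2 scale (SE 0.117, edgeR adjusted p = 0.0025). The differences from leaf of 0.33 in mature green exocarp (adjusted p = 0.0313) and 0.34 in red ripe mesocarp (adjusted p = 0.0256) were called and were lost with DESeq2. Without leaf replicate 2 they were 0.19 (adjusted p = 0.155) and 0.21 (0.101), without mature green exocarp replicate 1 the first was 0.29 (0.0881), and without red ripe mesocarp replicate 1 the second was 0.27 (0.138). Mature green mesocarp was not called (0.22, adjusted p = 0.121), but was called without leaf replicate 1 (0.42, adjusted p = 0.0119), with total counts (0.64, adjusted p = 0.00139) and by limma on log2(FPKM + 1) (0.61, adjusted p = 0.00136).

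In counts, 5 of 7 receptors were called between mature green exocarp and leaf (3 higher and 2 lower in fruit), where 71% of all genes were called (34.6% higher and 36.4% lower). The count was 5 of 7 for mature green mesocarp against leaf (2 higher and 3 lower), where 68.5% were called (32.7% higher and 35.8% lower). Between red ripe exocarp and leaf 6 of 7 were called (5 higher and 1 lower), where 75.9% of all genes were called (35.7% higher and 40.2% lower). For red ripe mesocarp against leaf it was 7 of 7 (5 higher and 2 lower), where 76.6% were called (35% higher and 41.6% lower). The leaf comparisons all rest on the same 2 leaf libraries.

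Compared per length, the order of the receptors changed with the tissue. In mature green exocarp and mesocarp ETR4 led with 32.4 ± 5.86 and 37.6 ± 0.307 FPKM (SD, n = 2 libraries), ahead of ETR1 with 15.2 ± 1.13 and 15.3 ± 0.0739 FPKM. ETR3 followed with 15.1 ± 0.323 and 13.0 ± 0.516 FPKM, overlapping with ETR1 in exocarp and with ETR2 in mesocarp. ETR6 came last in both layers with 0.78 and 0.538 FPKM.

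In red ripe fruit ETR3 led, with 701 ± 6.87 FPKM in exocarp and 376.8 ± 20.8 FPKM in mesocarp. ETR4 came next with 410.4 ± 36.4 and 256 ± 5.45 FPKM, and ETR7 followed with 25.8 and 36.5 FPKM. ETR6 had passed ETR5 in both layers and ETR2 as well. ETR2 was last in red ripe exocarp (3.22 FPKM) and ETR5 was last in red ripe mesocarp (2.50 FPKM), and in neither layer did a receptor overlap with its neighbour in the order. Among all genes listed, ETR3 ranked 78 and 80 by FPKM in the red ripe exocarp libraries and 184 and 159 in those of red ripe mesocarp.

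In leaf ETR3 was first with 13.9 FPKM, followed by ETR1 and ETR2, which overlapped, at 9.74 and 8.79 FPKM. ETR4, first in green fruit, was last but one in leaf with 2.14 FPKM. The highest receptor mean was 12.8-fold over the lowest in leaf. It was 41.5-fold over it in green exocarp, 69.9-fold in green mesocarp, 151-fold in red mesocarp and 218-fold in red exocarp, so the family was most even in leaf.

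The summed FPKM of the 7 receptors was 85.7 ± 5.64 in green exocarp and 1168 ± 30.8 in red exocarp (SD, n = 2 libraries). Green mesocarp had 93.7 ± 0.752, red mesocarp had 698 ± 27.6 and leaf had 46.5 ± 0.87. In FPKM the sum was thus 13.6-fold higher in red ripe than in mature green exocarp. In mesocarp it was 7.46-fold higher. The rise was larger in TMM-scaled CPM, where the sums were 247 and 280 in green and 5181 and 5387 in red exocarp. Those of mesocarp were 259 and 264 in green and 2988 and 3130 in red fruit. ETR3 and ETR4 together made up 98.3% of the FPKM gain in exocarp and 96.3% in mesocarp. The other 5 receptors summed to 38.2 and 43.0 FPKM in the green layers, and to 56.3 and 65.5 FPKM in the red layers. With 2 libraries against 2, an exact permutation test cannot go below p = 0.333, so sums and shares are given without a test.

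By share of the summed FPKM, green fruit divided its receptor transcript between ETR4 (37.6% ± 4.36 in exocarp and 40.1% ± 0.00601 in mesocarp), ETR1 (17.8% and 16.4%), ETR3 (17.7% and 13.9%), ETR7 (13.6% and 12.9%) and ETR2 (10.5% and 13.1%). Red ripe exocarp was 60.1% ± 2.17 ETR3 and 35.1% ± 2.19 ETR4, and red ripe mesocarp was 53.9% ± 0.842 ETR3 and 36.7% ± 0.671 ETR4. The ETR3 share was higher in red than in green fruit in both layers, and the ETR4 share of mesocarp was lower in red fruit by more than its SD. ETR1, whose own level hardly moved, went down to 1.21% and 1.78% of the sum. Leaf was 30.0% ETR3, 20.9% ETR1, 18.9% ETR2, 13.0% ETR7, 10.3% ETR5, 4.61% ETR4 and 2.34% ETR6.

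The ratio of ETR3 to ETR4 in FPKM set the tissues apart. Green exocarp had 0.544 and 0.409, and green mesocarp had 0.34 and 0.355. Red exocarp had 1.84 and 1.60, red mesocarp had 1.44 and 1.51, and leaf had 6.70 and 6.31. No library of green fruit, red fruit or leaf fell within the range of another of these 3 kinds of tissue. FPKM depends on the transcript length used, which the tables imply to be 4528 bases for ETR3 and between 2952 and 3371 bases for the others. Without the length, in shares of receptor counts, ETR3 made up 67.1% in the exocarp and 61.5% in the mesocarp of red fruit. The ETR4 share of counts was 36.9% ± 4.33 in green and 29.2% ± 2.01 in red exocarp, and 39.8% ± 0.0833 in green and 31.2% ± 0.653 in red mesocarp.

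**Figure D4:**
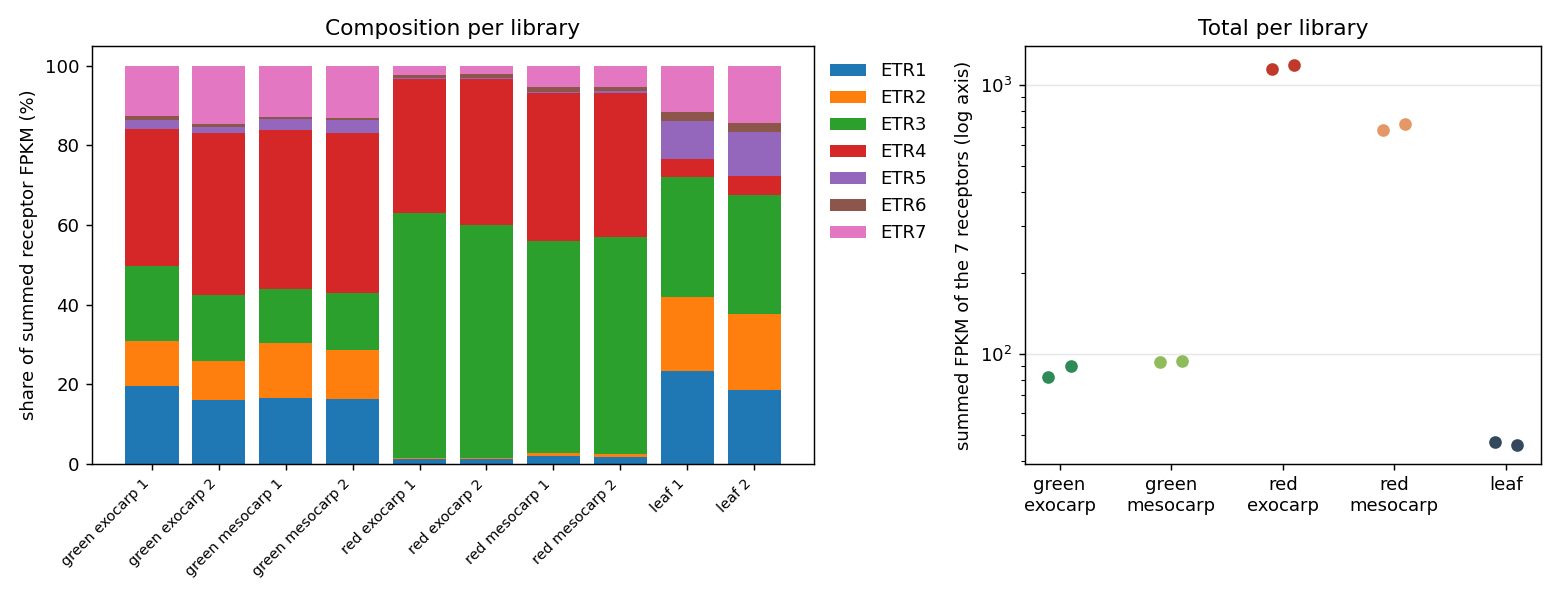
Left, share of each receptor in the summed receptor FPKM (percent, stacked bars, 1 bar per library). Right, the summed FPKM of the 7 receptors in each library (log axis). Red ripe libraries are mostly ETR3 and ETR4 and sum to between 679 and 1190 FPKM, and the leaf libraries sum to 45.8 and 47.1 FPKM.

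Patterns across the 10 libraries were compared by Pearson's r of log2 CPM, as a description. Within the family ETR3 and ETR6 were most alike (r = 0.974, n = 10 libraries), followed by ETR4 and ETR7 (r = 0.93), and ETR2 was opposite to ETR3 (r = -0.887). The points are 4 red, 4 green and 2 leaf libraries, with replicates of a tissue close together. Of the 12436 genes whose mean reached 10 CPM, the closest to ETR3 was Solyc12g098710 (r = 0.997) and the closest to ETR4 was Solyc01g068240 (r = 0.997), both without a name in the tables.

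The rest of the ethylene pathway was represented by a list of 17 genes of synthesis, signalling and response, of which 16 were tested. In exocarp 10 of the 16 were higher and 3 lower in red ripe fruit, and in mesocarp 10 were higher and 2 lower, beside the 61.9% and 60.1% of all genes called in these comparisons. The median log2 fold change of the list was 0.88 in exocarp and 1.38 in mesocarp. The 5 synthesis genes tested had medians of 4.15 and 5.07, and the 9 signalling genes, most of which act below the receptors, had medians of 0.41 and 0.56. The receptors, with medians of 1.65 and 2.01, lay between the signalling and the synthesis genes. The 2 response genes, E4 and E8, had the highest medians, 12.4 in exocarp and 7.22 in mesocarp. In the test of the difference between the layers' changes, 4 of the 16 pathway genes had a higher log2 fold change in exocarp and 5 a lower one, beside 21.3% of all genes called.

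ACS4 encodes an ACC synthase, the enzyme of the committed step of ethylene synthesis. Exocarp held 7.66 and 5.78 CPM at the green stage and 188 and 110 CPM at the red stage. Mesocarp held 0.872 and 1.07 CPM at the green stage and 472 and 491 CPM at the red stage, and leaf had 0 counts in both libraries. Its rise with stage was larger in mesocarp (log2 fold change 8.95) than in exocarp (4.47), a difference of -4.48 taken as exocarp minus mesocarp (edgeR adjusted p = 0.000484). ACS4 is named for having the largest mesocarp change of the synthesis genes, and that choice favours a larger rise in mesocarp. ACS2, also in the list, went the other way, with 17.3 in exocarp, from 0 counts in green exocarp, and 8.86 in mesocarp. Of the 5 synthesis genes tested, 1 was called higher and 2 lower in that test.

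E4 is an ethylene-responsive ripening gene. Exocarp went from 17.3 and 14.0 CPM to 6896 and 7234 CPM, and mesocarp went from 14.7 and 31.8 CPM to 3927 and 3597 CPM. It rose more in exocarp than in mesocarp, by 1.48 on the log2 scale (edgeR adjusted p = 0.0364). The signalling gene with the largest change, Solyc07g008250, stood in the list as EBF2, an F-box protein that removes transcription factors of the pathway. The reference table places the genes with that name on other chromosomes, so the identity of Solyc07g008250 is in doubt. It rose 12.1-fold in exocarp and 12.8-fold in mesocarp (edgeR adjusted p = 2.32e-07 and 2.48e-07).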

How the data were processed

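The authors deposited raw read counts per gene and FPKM values (counts scaled to transcript length and library size) of the same 10 libraries. The labels name HISAT2, and the genome build, annotation, counting tool and treatment of reads shared by related genes are not given in the sources used here. FPKM follows the library total, so it shifts between tissues where TMM factors (0.881 to 1.21) differ. Counts were filtered with filterByExpr by tissue, TMM-scaled and tested in edgeR 4.0.16 (R 4.3.3) with a coefficient per tissue, 5 residual degrees of freedom and Benjamini-Hochberg adjustment over 22801 genes. The edgeR test reports no standard error. SE and error bars are the absolute log2 fold change divided by the square root of the test's F value. The replicates were biological per the study, and whether layers shared fruits is not stated. DESeq2 1.42.0, DESeq2's size factors, total counts, no filter, only the compared tissues and a replicate block were tried. So were limma 3.58.1 on log2(FPKM + 1) and log2(FPKM + 0.1), an adjusted p under 0.01 and each library left out. On counts simulated with the same spread for all genes, edgeR recovered 84 of 100 2-fold and 100 of 100 4-fold changes between red and green exocarp. It called 8 unchanged genes, with 21890 genes tested. Smaller changes and differences between layers were not simulated. The receptors and gene lists were chosen with earlier results of these data known. All receptors are named, and of the pathway list the gene with the largest change in red against green mesocarp in each role. Pathway and marker names came from general knowledge. RefSeq placed 7 of 7 receptor names and 14 of 17 pathway names on the chromosome in the identifier. Among the marker names it placed 4 of 4 skin genes and 2 of 4 ripening genes. It held no entry under the name PSY1. The 3 Rubisco genes carried only working labels, so their names could not be looked up. E8, in the pathway list and among the 4 ripening genes, was not placed, so its identity is also in doubt. Sequences and coordinates were not analysed here.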

Additional observations from a re-analysis of the deposited data

Results flagged for a closer look

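For 3 receptors the change with ripening differed between the fruit layers in a direct test of the difference (edgeR's quasi-likelihood test). The change was larger in exocarp than in mesocarp by 0.58 on the log2 scale for ETR3 (adjusted p = 0.00789), by 0.79 for ETR4 (adjusted p = 0.0187) and by 1.39 for ETR5 (adjusted p = 0.00407). For ETR3 and ETR4 both layers rose. For ETR5 exocarp rose by 1.65 and mesocarp differed by 0.26, which was not called. The green layers also differed in the ripening genes E8, PG2A and PSY1, and the part of this in these 3 results was not tested. The ETR4 difference was 0.69 (adjusted p = 0.0558) without red ripe exocarp replicate 2, the library with the higher ETR4 level of its tissue. It was 0.77 without red ripe mesocarp replicate 1 (adjusted p = 0.0687), 0.80 without replicate 2 (0.0641), 0.80 without mature green mesocarp replicate 1 (0.0608) and 0.77 without its replicate 2 (0.0661).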

How the results depend on the processing

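Of 63 log2 fold changes, 10 turned sign under some alternative (26 of 1197 values), and none of these 10 was called. With total counts, log2(FPKM + 1) and log2(FPKM + 0.1), in that order, ETR1 was -0.102, -0.0947 and -0.10 for red against green exocarp, -0.27, -0.29 and -0.30 for red against green mesocarp, and -0.0113, -0.0109 and -0.0117 for green exocarp against mesocarp. In the same order ETR5 was -0.13, -0.11 and -0.15 for red against green mesocarp, ETR7 was -0.049, -0.053 and -0.0577 for green exocarp against mesocarp, and against leaf in green exocarp ETR2 was 0.0118, 0.0234 and 0.0257 and ETR3 was 0.11, 0.11 and 0.12. DESeq2 and its size factors both gave -0.0362 for ETR2 in green mesocarp against leaf, which was called higher with total counts (0.47), log2(FPKM + 1) (0.44) and log2(FPKM + 0.1) (0.48). With a library left out, ETR4 ranged from -0.32 to 0.11 and ETR7 from -0.14 to 0.26 in green exocarp against mesocarp, and ETR6 from -0.0522 to 0.34 in red exocarp against mesocarp.

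Between green layers the 3 called receptors became 1 at an adjusted p under 0.01 (ETR2 and ETR3 lost) and 1 with only the compared tissues fitted (ETR2 and ETR5 lost). At an adjusted p under 0.01, the 5 called between red layers became 3 (ETR5 and ETR7 lost) and the 5 between green exocarp and leaf became 3 (ETR1 and ETR6 lost). DESeq2 called 5 in place of 3 receptors (ETR2 and ETR7 added) in the test of the difference between layers. The causes were not tested. The share of all genes called is not given for these settings or for the fits with a library left out. The counts therefore do not show whether calls changed more for receptors than for other genes. With a library left out, its tissue has 1 library that is assumed to vary like the others. The count called then ranged from 1 to 3 between green layers, 3 to 5 between red layers, 3 to 6 for green exocarp against leaf, 2 to 4 for the difference between layers, 6 to 7 for red against green exocarp and 5 to 5 for red against green mesocarp.

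Total counts left 36.5% of the called genes higher in green exocarp than in green mesocarp, where TMM left 3955 of 8281. Against leaf, it left 58.5% higher in green exocarp (TMM 7897 of 16198) and 61.9% higher in green mesocarp (TMM 7459 of 15615), with shifts of the median of 0.26 and 0.39 on the log2 scale. Deviations between replicates, correlated over genes between tissues, gave r between -0.0475 and 0.0645. With a single deviation per tissue, this cannot decide whether libraries with the same replicate number were paired. With a replicate block the ETR2 difference between green layers was -0.34 (adjusted p = 0.0685), and the ETR7 difference between the ripening changes of the layers was called (-0.55, adjusted p = 0.0446), with no other call changed. Of 35 shares, 27 moved by more than 1 SD without the length correction.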
